A study of Mus musculus with 6 samples.

Results

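The genes described here encode ATP-dependent chromatin remodellers, histone deacetylases, corepressors and the coactivator acetyltransferases Ep300 and Crebbp. They were chosen by gene symbol: the SMARC, CHD, ARID1 to ARID5, BCL7, ACTL6 and HDAC families, the MTA, MBD, GATAD2, RBBP4 and RBBP7, NCOR and SIN3 genes, and Ep300 and Crebbp, with at least 10 counts summed over all libraries. The rule took 71 of the 26195 genes with at least 1 count. It used the symbol and the summed count, not the genotypes. RNA was measured in whole cerebellum of C57BL/6 mice aged 6 days, with 3 libraries from mice with a conditional knockout of SnoN (SnoN cKO) and 3 from wild type mice. Each library has its own sex label, but the labels do not say whether it holds 1 mouse or a pool. SnoN is the product of Skil and belongs, with Ski, to a family of transcriptional coregulators. The labels name neither the Cre driver nor the cells in which Skil was deleted. The study's title concerns the proliferation of granule neuron precursors, the dividing cells of the outer layer of the young cerebellum.

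Remodellers use ATP to slide, eject or exchange nucleosomes. The BAF complex, the mammalian SWI/SNF remodeller, swaps subunits as neural cells mature: dividing neural progenitors carry Actl6a (BAF53a) and Ss18, and postmitotic neurons carry Actl6b (BAF53b) and Ss18l1 (CREST) in their places. The NuRD complex joins a CHD-type ATPase to the deacetylases Hdac1 and Hdac2. Ski-family proteins are known to bind the corepressors N-CoR and Sin3, which bring histone deacetylases to SMAD target genes.

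In mouse neurons the exchange of Actl6a for Actl6b is known to depend on repression of Actl6a by miR-9* and miR-124 through its 3′ untranslated region (UTR). The miR-9* sequence and the matching stretch of Actl6a are shown because Actl6a and Actl6b were among the members with the smallest p in these data. The mature mouse miR-9-3p (miR-9*) is from RefSeq (GRCm38.p6), which lists it on the plus strand at chr3:88215652-88215673, chr7:79505318-79505339 and chr13:83738858-83738879. Capitals mark its seed, bases 2 to 8. The Actl6a window is from the GENCODE M21 transcript with the longest coding sequence (GRCm38, chromosome 3), and its capitals mark the letters complementary to the seed.
miR-9-3p: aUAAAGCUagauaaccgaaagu
Actl6a 3′ UTR: tcaacgtctgtAGCTTTAgtacactcagg
The match began at base 38 of the 371 bases of the Actl6a 3′ UTR. The 196 bases of the Actl6b 3′ UTR held none. Of 3′ UTRs within 20% of the length of that of Actl6a, 2.41% of 1866 held AGCTTTA. Over all coding genes 10.1% of 20673 held it, and of the 67 members with a 3′ UTR in the annotation 7 did. The other 6 were Smarca2, Smarcc1, Smarce1, Smarcd2, Arid2 and Rbbp4. A match in these letters describes the sequence and was not tested as a site.

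Libraries held 12639806 to 17757711 counts for SnoN cKO and 12605870 to 15050176 counts for wild type. Skil had 76.0, 74.7 and 77.5 CPM (counts per 1000000 of the scaled library total) in SnoN cKO 1, 2 and 3, against 89.5, 87.5 and 88.9 CPM in wild type 1, 2 and 3. Every SnoN cKO library was below every wild type library, with a log2 fold change of -0.22 (SE 0.04; unadjusted p = 0.000379, adjusted p = 0.637, edgeR quasi-likelihood test with Benjamini-Hochberg adjustment). Skil RNA was thus still at 76.1 ± 1.39 CPM in SnoN cKO cerebella and 88.6 ± 1.0 CPM in wild type cerebella (SD, n = 3 each). In bulk tissue, fewer cells of a type and less RNA per cell cannot be told apart. All 11 markers of cerebellar neurons and their precursors had counts in every library. SnoN cKO 2 stood apart in its choroid plexus markers, whose sum was 48.6 CPM there, against 1818 to 3387 CPM in wild type libraries. SnoN cKO 3 and wild type 2 held 4.6% and 0.854% of counts in ribosomal RNA-like genes, against at most 0.0899% in the other 4 libraries. SnoN cKO 1, labelled female, had 35 Xist and 1146 Ddx3y counts. SnoN cKO 2, labelled male, had 37467 Xist and 0 Ddx3y counts, so both libraries went against their labelled sex. Both carry the same genotype label.

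No chromatin gene passed the test between genotypes. Of the 71 members, 69 passed the filter on low counts, and 0 of them had an adjusted p under 0.05 by edgeR's quasi-likelihood test, where 0.0% of 15457 genes did. DESeq2 also called 0 members. Without adjustment, edgeR gave a p under 0.05 for 2 members higher in SnoN cKO (Actl6a and Chd1l; 3.21% of all genes) and 2 lower (Chd5 and Actl6b; 4.47% of all genes), a share near that of all genes. In 5 members every SnoN cKO library lay above every wild type library, and in 2 below, against 6.95% and 6.73% of all genes. Those above were Actl6a, Chd1l, Hdac2, Mta3 and Mbd3, and those below were Actl6b and Chd9. None of these 4 counts exceeded the background share by as much as 1 gene.

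The differences were small. Log2 fold changes had a median of 0.009 over the 69 members and -0.002 over all genes tested. Of the members 65 (94.2%) lay within 0.15 of 0, where 75.8% of all genes did. All genes were not matched to the members in count level (median of member means 103.3 CPM), so these shares do not show that the members were steadier. The value was positive in 40 members and negative in 29. With library totals in place of trimmed-mean (TMM) scaling it was positive in 29 of 69, and the unadjusted counts became 0 higher and 4 lower, while relative log expression scaling left 40 of 69 positive. The median over all genes moved to -0.022 with library totals, so values near 0 took the other sign with it. The standard error of a member's log2 fold change had a median of 0.06. Among the 69 tested members the coefficient of variation over all 6 libraries was under 10% for 65, with a median of 5.63%. The exceptions among them were Smarca5 at 78.3%, Arid3c at 29.7%, Hdac11 at 14.9% and Chd5 at 14.7%. The pseudogenes Smarca5-ps and Smarce1-ps1 missed the filter. Smarca5-ps had 4, 6 and 6 counts in SnoN cKO libraries and 2, 7 and 6 counts in wild type libraries, and Smarce1-ps1 had 2, 0 and 1 counts in SnoN cKO libraries and 3, 4 and 1 counts in wild type libraries.

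**Figure D1:**
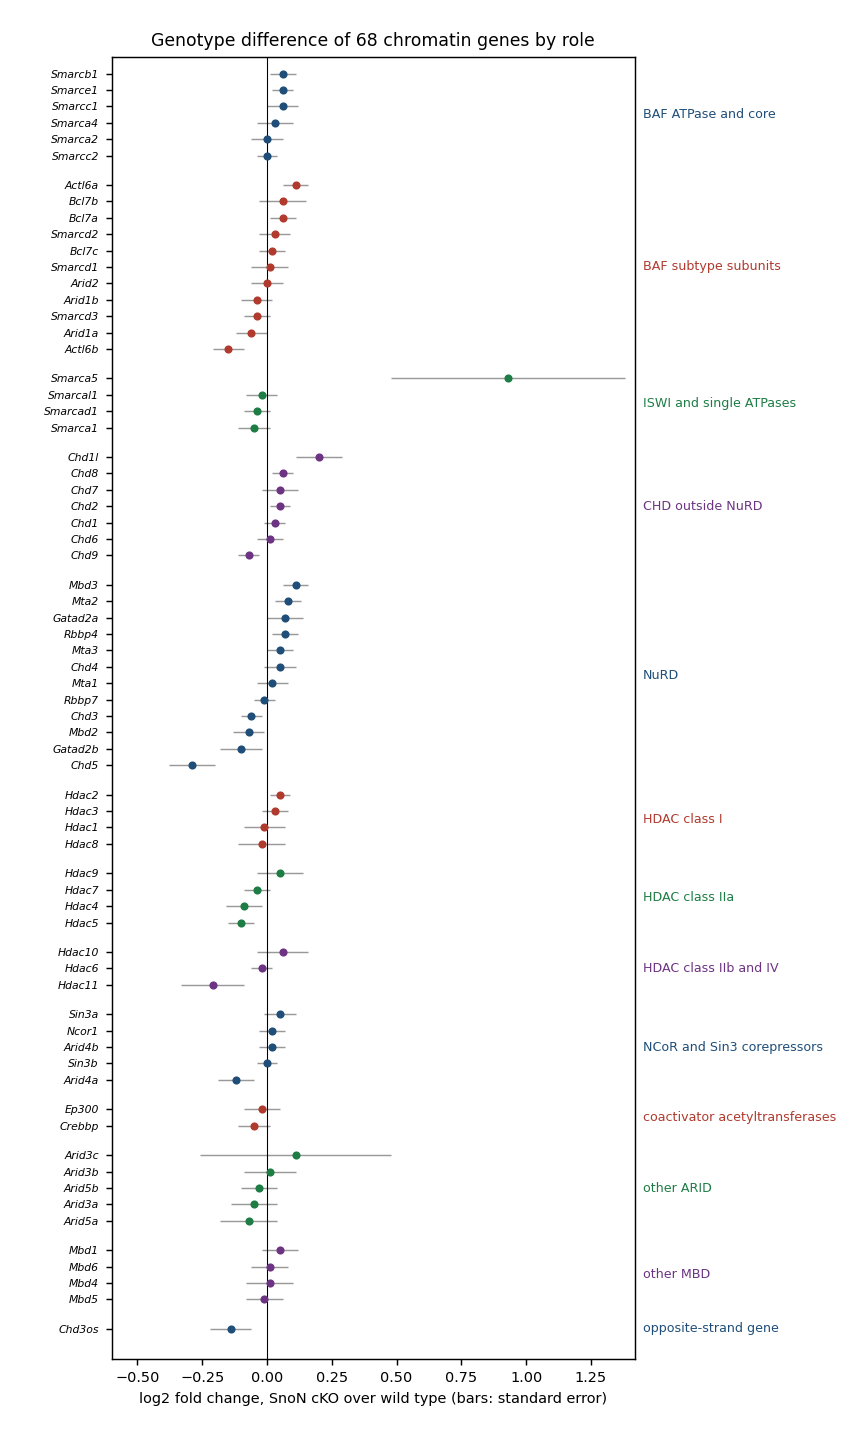
Log2 fold change, SnoN cKO over wild type, of 68 of the 69 tested members by role, as points with bars of 1 standard error (edgeR, 3 libraries per genotype). All but a few points lie within 0.15 of 0, and Smarca5 at 0.93 has the widest bar.

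Expression per length placed these genes in the upper part of the transcriptome. In CPM per kb of exon, the median over the 68 members with a length was 12.5, against 6.45 over 15208 genes tested, and 53 members were above 6.45. The highest levels were those of the BAF core subunit Smarcc2 at 86.3, the NuRD subunit Mbd3 at 77.1, the NuRD ATPase Chd4 at 76.9 and the BAF ATPase Smarca4 (BRG1) at 71.9 CPM per kb. Hdac2 followed at 57.7 CPM per kb. By role, the NuRD subunits had the highest median level, 34.6 CPM per kb over 12 genes. The 6 BAF core genes had a median of 19.3, the 4 class I deacetylases 17.7 and the 6 N-CoR and Sin3 corepressor genes 17.4 CPM per kb. The ARID genes outside these complexes had the lowest median, 2.03 CPM per kb over 5 genes. These are means over all 6 libraries. Within NuRD they spanned 4.19 to 77.1 CPM per kb, so roles overlapped widely.

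**Figure D2:**
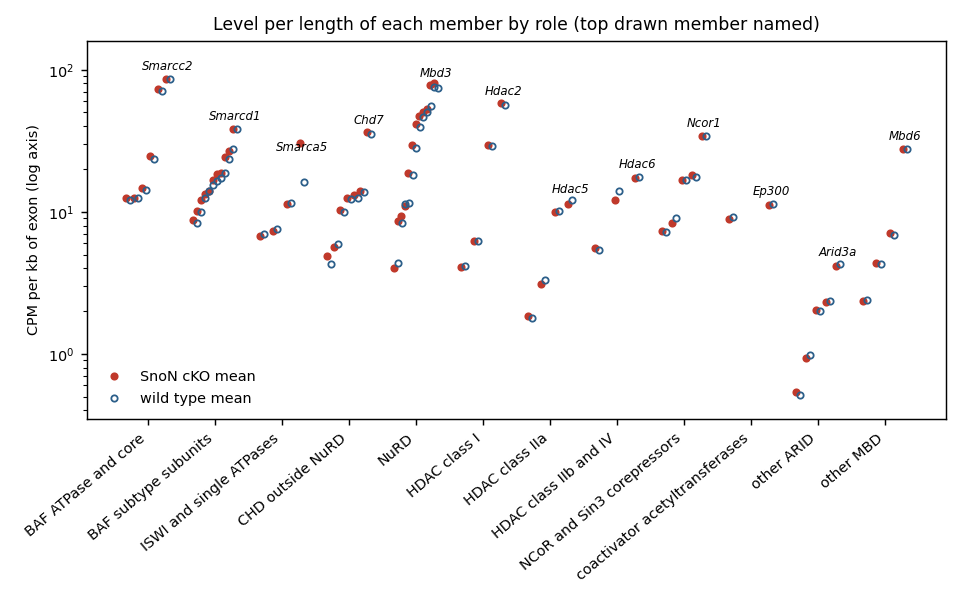
Level of the members in CPM per kb of exon (log axis), grouped by role, with filled points for the SnoN cKO mean and open points for the wild type mean of 3 libraries. Pairs of points nearly coincide except for Smarca5, and Smarcc2 is the highest member at 86.3 CPM per kb over all libraries.

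The BAF core showed nearly equal levels in both genotypes. Smarcc2, a scaffold subunit, had 486.5, 485.6 and 465.8 CPM in SnoN cKO libraries and 466.8, 482.0 and 488.5 CPM in wild type libraries. Smarca4, the ATPase that granule neuron precursors require for Sonic hedgehog-driven growth in mice, had 483.3, 491.6 and 437.4 CPM in SnoN cKO libraries and 440.7, 435.4 and 505.2 CPM in wild type libraries. The genotypes overlapped in both genes, and SnoN cKO 3 was lowest of its genotype in both. Log2 fold changes were 0.00 (SE 0.04) for Smarcc2 and 0.03 (SE 0.07) for Smarca4. Over the 6 core genes, which also include Smarca2, Smarcb1, Smarcc1 and Smarce1, it spanned 0.00 to 0.06, with 0 genes under an unadjusted p of 0.05.

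Among the 11 subunits that set the subtype of a BAF complex, the log2 fold change spanned -0.15 to 0.11, and the extremes were the neuronal Actl6b and the progenitor Actl6a. Arid1a, the DNA-binding subunit of canonical BAF, averaged 305.9 ± 21.3 CPM in SnoN cKO and 318.5 ± 19.4 CPM in wild type libraries (SD, n = 3 each). Its individual values were 322.9, 312.7 and 282.1 CPM in SnoN cKO libraries and 305.2, 309.4 and 340.7 CPM in wild type libraries. Bcl7a, an accessory subunit, had 235.6, 239.1 and 221.3 CPM in SnoN cKO libraries and 212.7, 215.9 and 239.4 CPM in wild type libraries. Both genes overlapped between genotypes, with log2 fold changes of -0.06 (SE 0.06) and 0.06 (SE 0.05).

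Actl6b had 55.2, 59.6 and 62.8 CPM in SnoN cKO libraries and 66.6, 66.2 and 63.9 CPM in wild type libraries. All SnoN cKO libraries were below all wild type libraries, with SnoN cKO 3 just under wild type 3. The log2 fold change was -0.15 (SE 0.06; unadjusted p = 0.0246, adjusted p = 0.637, edgeR quasi-likelihood test), and leaving out each library in turn gave -0.18 to -0.10. Actl6a had 69.6, 75.1 and 71.3 CPM in SnoN cKO libraries and 67.9, 67.0 and 65.3 CPM in wild type libraries. Here all SnoN cKO libraries were above all wild type libraries. Its log2 fold change was 0.11 (SE 0.05; unadjusted p = 0.0417, adjusted p = 0.638, edgeR quasi-likelihood test), and leaving out each library gave 0.08 to 0.13.

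The ratio of Actl6b to Actl6a was lower in every SnoN cKO library. This follows from the values above, with Actl6b lower and Actl6a higher without overlap, and is not a separate result. As the log2 of CPM the ratio was -0.33, -0.33 and -0.18 in SnoN cKO libraries and -0.03, -0.02 and -0.03 in wild type libraries. The difference of means was -0.26 (exact two-sided permutation p = 0.1, the smallest that 3 against 3 libraries can give; adjusted p = 0.6 over 18 pairs). Scaled to exon length, Actl6b stood at 0.748 of the Actl6a level in SnoN cKO and 0.894 in wild type libraries. The Actl6a side carries a limit of counting: 20.8% of the 50-base words of its transcript also occur in other genes, mainly Mrpl47. Mrpl47 overlaps Actl6a on the opposite strand, and the library kit does not mark strand. Mrpl47 itself had 20.5, 18.8 and 18.5 CPM in SnoN cKO and 21.1, 19.6 and 21.1 CPM in wild type libraries.

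The neuronal BAF complex is known for 2 further exchanges, of Ss18 for Ss18l1 and of Phf10 for Dpf1 or Dpf3, and their values differed from each other. Ss18l1, the neuronal subunit, had 70.7, 69.7 and 71.6 CPM in SnoN cKO libraries and 73.9, 75.4 and 79.3 CPM in wild type libraries, without overlap (log2 fold change -0.11, SE 0.05; unadjusted p = 0.0382, adjusted p = 0.637, edgeR). Its progenitor counterpart Ss18 had 74.4, 84.4 and 82.0 CPM in SnoN cKO libraries and 80.2, 74.7 and 75.0 CPM in wild type libraries, with overlap (log2 fold change 0.07, SE 0.06). Phf10, the progenitor subunit of the other exchange, averaged 67.7 ± 3.93 CPM in SnoN cKO and 67.6 ± 2.01 CPM in wild type libraries (SD, n = 3 each). Its neuronal counterparts Dpf1 and Dpf3 overlapped between genotypes, with log2 fold changes of -0.03 (SE 0.09) and -0.06 (SE 0.06). Phf10, Dpf1, Dpf3 and Ss18 were looked at after their values were seen.

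Summed cell markers did not overlap between genotypes for DNA replication, maturing neurons, and Bergmann glia and astrocytes. The sums of the other marker lists overlapped. Over all genes tested, 49.0% of log2 fold changes were positive. The sum of 23 DNA replication genes was 1686 to 1945 CPM in SnoN cKO and 1588 to 1678 CPM in wild type libraries. Their log2 fold changes were positive in 23 of 23, with a median of 0.14. SnoN cKO 2 was highest at 1945 CPM, and SnoN cKO 3 at 1686 CPM lay close to wild type 3 at 1678 CPM. Without SnoN cKO 2 the median was 0.068, with 19 of 23 positive. The sum of 15 genes of maturing neurons was 5501 to 5851 CPM in SnoN cKO and 5928 to 6203 CPM in wild type libraries, with 14 of 15 negative. Bergmann glia and astrocyte markers summed to 3957 to 4171 CPM in SnoN cKO and 3762 to 3853 CPM in wild type libraries, with 5 of 8 positive. Cerebellar identity markers summed to 3977 to 4292 CPM in SnoN cKO and 3714 to 4200 CPM in wild type libraries, with 10 of 11 positive. Those of meninges and fibroblasts summed to 1304 to 1592 CPM in SnoN cKO and 1443 to 1750 CPM in wild type libraries, with 7 of 7 negative. None of the genes of these 5 lists was at 0 in any library. Brainstem markers, 8 of 16 of which passed the filter, summed to 4.33 to 12.6 CPM in SnoN cKO and 11.5 to 20.7 CPM in wild type libraries, with 8 of 8 negative. Positive values were 8 of 8 for microglia (4 without wild type 2 and 5 with library totals alone) and 3 of 11 for oligodendrocytes. For endothelium and blood they were 3 of 7. For choroid plexus they were 0 of 10, but 10 of 10 without SnoN cKO 2. In all of these lists 0 genes passed the adjusted threshold, and their part in the Actl6a, Actl6b and Ss18l1 values was not tested.

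The ISWI and single-subunit ATPases held the member with the largest fitted difference, Smarca5, and it rested on 1 library. Smarca5 (SNF2H) is the ISWI ATPase that mouse cerebellar progenitors need in order to expand. It had 116.9, 126.8 and 469.3 CPM in SnoN cKO libraries and 106.6, 153.8 and 115.0 CPM in wild type libraries. SnoN cKO 3 was thus 4.01-fold above the median of the other 5 libraries, and the next member by this measure, the sparsely counted Arid3c, was 1.21-fold above. The log2 fold change of 0.93 (SE 0.45; unadjusted p = 0.0657, adjusted p = 0.654, edgeR quasi-likelihood test) became -0.03 without SnoN cKO 3.

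Smarca5 was highest in the same libraries as the ribosomal RNA-like genes. Gm42418, the most abundant of them, had 617.5, 656.1 and 39052 CPM in SnoN cKO libraries and 505.1, 6921 and 565.2 CPM in wild type libraries. The protein-coding gene Lars2 had 66.6, 80.5 and 2276 CPM in SnoN cKO libraries and 60.0, 414.6 and 60.2 CPM in wild type libraries. The 5.8S gene n-R5-8s1 had 2.82, 3.86 and 602.0 CPM in SnoN cKO libraries and 3.44, 154.1 and 2.03 CPM in wild type libraries. In all 4 genes the 2 highest libraries were SnoN cKO 3 and wild type 2. The part of ribosomal reads in the Smarca5 count was not tested. Without both libraries the log2 fold change of Smarca5 was 0.14. Of the 50-base words of the Smarca5 transcript, 35.3% also occur in other genes, mainly the pseudogene Smarca5-ps. That pseudogene had 6 counts in SnoN cKO 3. Smarcad1, an ATPase of heterochromatin upkeep, had 89.8, 91.1 and 88.0 CPM in SnoN cKO libraries and 98.0, 89.5 and 89.5 CPM in wild type libraries, with a log2 fold change of -0.04 (SE 0.05). Smarca1 and Smarcal1 gave -0.05 and -0.02.

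**Figure D3:**
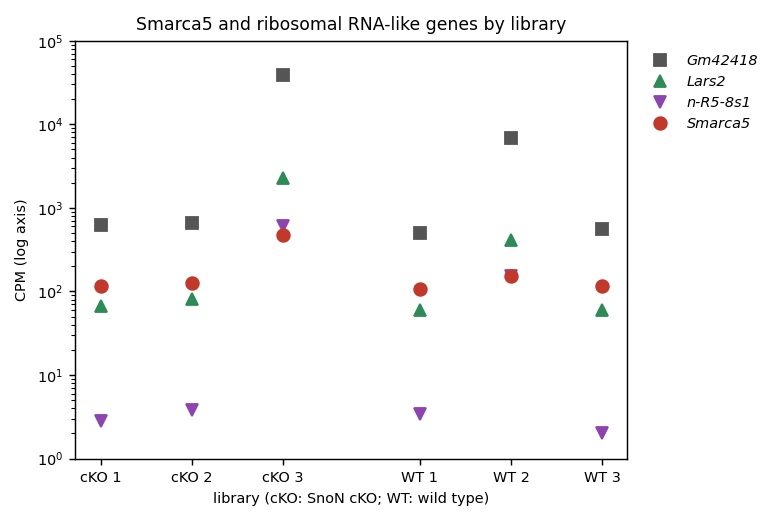
CPM (log axis) of Smarca5 and of Gm42418, Lars2 and n-R5-8s1 in each library, SnoN cKO on the left and wild type on the right. All 4 genes are highest in SnoN cKO 3 and next highest in wild type 2.

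Of the 7 CHD ATPases outside NuRD, 6 had positive log2 fold changes (5 with library totals alone), spanning -0.07 to 0.20. Chd7, whose human counterpart is mutated in CHARGE syndrome and which acts in granule neuron precursors, was the highest of them. It had 514.8, 521.2 and 468.5 CPM in SnoN cKO libraries and 459.9, 462.1 and 536.1 CPM in wild type libraries, with overlap and a log2 fold change of 0.05 (SE 0.07). Chd6 had 244.7, 245.6 and 226.5 CPM in SnoN cKO libraries and 230.8, 244.7 and 236.5 CPM in wild type libraries, and a log2 fold change of 0.01 (SE 0.05). Neither gene separated the genotypes.

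Chd8, a remodeller tied to autism in humans, had 217.4, 225.0 and 211.7 CPM in SnoN cKO libraries and 203.0, 206.2 and 216.4 CPM in wild type libraries. Its log2 fold change was 0.06 (SE 0.04; unadjusted p = 0.158, edgeR), and wild type 3 overlapped the SnoN cKO libraries. Chd1l (ALC1), a remodeller recruited to DNA damage by poly(ADP-ribose), had the largest positive value after Smarca5. It had 19.1, 22.4 and 21.9 CPM in SnoN cKO libraries and 17.6, 18.9 and 18.7 CPM in wild type libraries, without overlap but with SnoN cKO 1 close to wild type 2. Its fitted log2 fold change was 0.20 (SE 0.09; unadjusted p = 0.0459, adjusted p = 0.640, edgeR quasi-likelihood test). Chd9 was the other CHD gene whose genotypes did not overlap, at 132.4, 125.3 and 133.1 CPM in SnoN cKO libraries and 135.4, 136.2 and 139.7 CPM in wild type libraries (log2 fold change -0.07, SE 0.04; unadjusted p = 0.128, edgeR).

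NuRD held the member with the smallest p, Chd5. This CHD-type ATPase is found mainly in neurons, whereas Chd4 is the broadly used NuRD ATPase and acts in granule neurons of the mouse as they form synapses. Chd5 had 96.3, 80.9 and 90.5 CPM in SnoN cKO libraries and 114.1, 119.0 and 93.4 CPM in wild type libraries. Wild type 3 fell inside the range of the SnoN cKO libraries, so the genotypes overlapped. The mean was 89.2 ± 7.77 CPM in SnoN cKO and 108.8 ± 13.6 CPM in wild type libraries, with a log2 fold change of -0.29 (SE 0.09; unadjusted p = 0.0105, adjusted p = 0.637, edgeR quasi-likelihood test). It ranked 214th of all genes by p, and leaving out each library gave -0.39 to -0.21. Its lowest library was SnoN cKO 2. That library was also lowest in the summed markers of brainstem (4.33 CPM), maturing neurons (5501 CPM), oligodendrocytes (1374 CPM) and choroid plexus (48.6 CPM). It was highest in those of DNA replication, cerebellar identity, Bergmann glia and astrocytes, microglia, and endothelium and blood. Of the 16 brainstem markers 10 were at 0 in some library, 8 of them (Hoxa4, Hoxa5, Hoxb3, Hoxb4, Hoxc4, Hoxd3, Hoxd4 and Chat) in SnoN cKO 2. The part of these marker lists in the Chd5 value was not tested.

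The other NuRD ATPases were even. Chd4 had 643.4, 650.1 and 590.1 CPM in SnoN cKO libraries and 571.7, 589.8 and 655.3 CPM in wild type libraries, with a log2 fold change of 0.05 (SE 0.06). Chd3 had 465.5, 438.5 and 440.1 CPM in SnoN cKO libraries and 459.1, 468.2 and 470.5 CPM in wild type libraries, with a log2 fold change of -0.06 (SE 0.04). Both overlapped between genotypes. The antisense transcript Chd3os had 40.8, 39.1 and 46.9 CPM in SnoN cKO libraries and 47.7, 48.6 and 43.4 CPM in wild type libraries (log2 fold change -0.14, SE 0.08). Since the kit does not mark strand, reads of Chd3 and Chd3os cannot be told apart where they overlap.

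Mbd3, the methyl-CpG-binding-domain protein that holds NuRD together, had 157.8, 161.8 and 157.1 CPM in SnoN cKO libraries and 136.1, 151.4 and 154.3 CPM in wild type libraries. The SnoN cKO libraries were all higher, and the log2 fold change was 0.11 (SE 0.05; unadjusted p = 0.0651, adjusted p = 0.654, edgeR quasi-likelihood test). Without wild type 1, the lowest library, it was 0.06. Its alternative Mbd2 had 36.8, 33.3 and 35.5 CPM in SnoN cKO libraries and 36.0, 36.8 and 38.3 CPM in wild type libraries, with overlap. Mta2, one of the scaffold subunits, had 171.9, 173.4 and 163.0 CPM in SnoN cKO libraries and 156.6, 156.6 and 168.3 CPM in wild type libraries (log2 fold change 0.08, SE 0.05). Mta3 did not overlap between genotypes either, but its means lay close, at 45.5 ± 0.749 CPM in SnoN cKO and 44.1 ± 0.507 CPM in wild type libraries (SD, n = 3 each). The histone-binding subunits Rbbp4 and Rbbp7 gave log2 fold changes of 0.07 and -0.01.

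**Figure D4:**
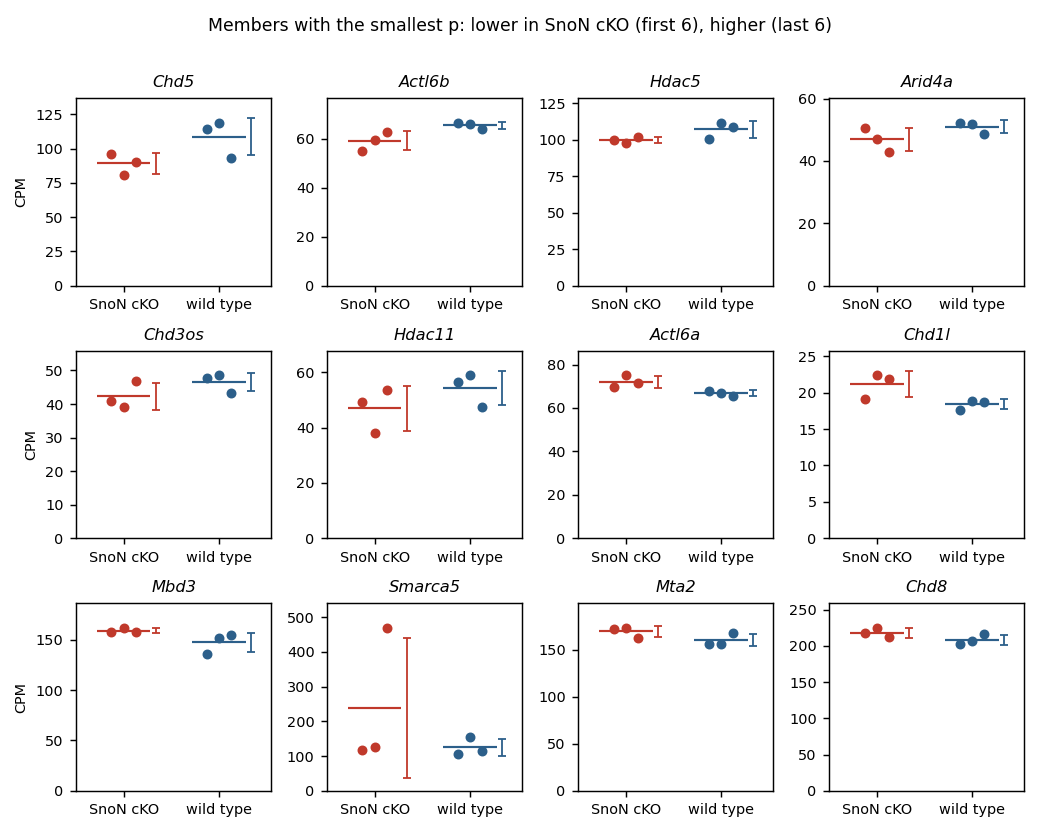
CPM in each library (points), with the mean (line) and SD (bar), SnoN cKO left and wild type right, for the 6 members with the smallest p among those lower and the 6 among those higher in SnoN cKO. The genotypes do not overlap in Actl6b, Actl6a, Chd1l and Mbd3, and Smarca5 has 1 library at 469.3 CPM.

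Class I deacetylases, the catalytic partners of NuRD, Sin3 and N-CoR, were led by Hdac2. It had 255.6, 273.7 and 257.8 CPM in SnoN cKO libraries and 253.4, 252.1 and 254.9 CPM in wild type libraries, without overlap but with SnoN cKO 1 close to wild type 3. Its log2 fold change was 0.05 (SE 0.04; unadjusted p = 0.257, edgeR). Hdac3, the N-CoR deacetylase, had 116.7, 117.1 and 124.9 CPM in SnoN cKO libraries and 123.1, 116.4 and 112.1 CPM in wild type libraries, with overlap. Per exon length Hdac2 was 9.44 times the level of Hdac1 in SnoN cKO and 9.08 times in wild type libraries. Hdac1 shares 58.7% of its 50-base words with other genes, among them the pseudogene Gm10093, so its count, 21.4 ± 0.621 CPM in SnoN cKO and 21.6 ± 1.87 CPM in wild type libraries, is uncertain as a level.

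The class IIa deacetylases, which shuttle between cytoplasm and nucleus and repress MEF2 targets, had 3 negative values of 4 (4 without wild type 1 and 2 without SnoN cKO 3). Hdac5 was at 99.8, 97.5 and 101.8 CPM in SnoN cKO libraries and 100.5, 111.7 and 109.0 CPM in wild type libraries, where only wild type 1 overlapped. Its log2 fold change was -0.10 (SE 0.05; unadjusted p = 0.0724, adjusted p = 0.654, edgeR quasi-likelihood test). Hdac7 was at 66.7, 71.0 and 64.3 CPM in SnoN cKO libraries and 68.8, 69.7 and 68.9 CPM in wild type libraries, and its log2 fold change was -0.04 (SE 0.05). Hdac4 and Hdac9 gave -0.09 and 0.05.

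In the remaining classes, Hdac6, the tubulin deacetylase, was among the steadiest members, with a coefficient of variation of 1.58%. It had 100.6, 103.9 and 99.9 CPM in SnoN cKO libraries and 103.4, 102.2 and 103.4 CPM in wild type libraries. Hdac11, the class IV enzyme, varied most among the deacetylases. It had 49.1, 38.0 and 53.6 CPM in SnoN cKO libraries and 56.4, 58.9 and 47.4 CPM in wild type libraries, with overlap. With SnoN cKO over wild type the log2 fold change was -0.21 (SE 0.12; unadjusted p = 0.110, adjusted p = 0.676, edgeR quasi-likelihood test) and became -0.08 without SnoN cKO 2.

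Among the corepressors that Ski-family proteins bind, Ncor1, Sin3a and Sin3b did not separate the genotypes. Ncor1 had 443.8, 455.7 and 420.4 CPM in SnoN cKO libraries and 419.9, 421.2 and 465.2 CPM in wild type libraries, with a log2 fold change of 0.02 (SE 0.05). All SnoN cKO libraries lay between the wild type extremes, and the genotypes overlapped. Sin3a averaged 98.2 ± 6.82 CPM in SnoN cKO and 95.2 ± 3.44 CPM in wild type libraries, and Sin3b 123.2 ± 2.67 CPM in SnoN cKO and 123.1 ± 2.16 CPM in wild type libraries (SD, n = 3 each). Arid4a, a retinoblastoma-binding Sin3 subunit, had 50.5, 47.2 and 43.0 CPM in SnoN cKO libraries and 52.3, 52.0 and 48.5 CPM in wild type libraries. Its log2 fold change was -0.12 (SE 0.07; unadjusted p = 0.0999, adjusted p = 0.663, edgeR quasi-likelihood test), and SnoN cKO 1 overlapped wild type 3. It became -0.05 without SnoN cKO 3.

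The coactivator acetyltransferases Ep300 and Crebbp, which oppose deacetylases at enhancers, overlapped as well. Ep300 had 172.5, 161.8 and 145.4 CPM in SnoN cKO libraries and 159.2, 150.8 and 175.6 CPM in wild type libraries. Crebbp had 127.7, 117.8 and 115.6 CPM in SnoN cKO libraries and 115.3, 123.0 and 134.4 CPM in wild type libraries. Their log2 fold changes were -0.02 (SE 0.07) and -0.05 (SE 0.06). Among the ARID and MBD genes outside the complexes, the log2 fold change spanned -0.07 to 0.11, and 0 of 9 had an unadjusted p under 0.05. The DNA-binding protein Arid3a had 23.4, 25.2 and 20.8 CPM in SnoN cKO libraries and 23.7, 22.3 and 25.8 CPM in wild type libraries. Arid5b averaged 23.3 ± 1.38 CPM in SnoN cKO and 23.8 ± 0.89 CPM in wild type libraries (SD, n = 3 each). Mbd6, the highest of the group per exon length at 27.7 CPM per kb, had 119.5, 138.5 and 114.1 CPM in SnoN cKO libraries and 125.3, 122.3 and 121.4 CPM in wild type libraries. The methyl-CpG reader Mbd1 had 47.5, 52.7 and 43.3 CPM in SnoN cKO libraries and 44.8, 46.8 and 47 CPM in wild type libraries.

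Ratios between the RNA counts of related genes were compared within each library, free of the scaling between libraries. In bulk tissue such ratios do not give the make-up of a complex. Of 18 pairs, 3 did not overlap between genotypes, Actl6b to Actl6a, Gatad2b to Gatad2a and Mbd3 to Mbd2, each with an exact permutation p of 0.1 and an adjusted p of 0.6. Among all single genes tested, 6.95% were higher and 6.73% lower without overlap. The matching share for ratios between other genes was not computed. The separation of Actl6b to Actl6a follows from the values of the single genes, given above, and is not a further result. Mbd3 by itself did not overlap either, as given above, so the ratio of Mbd3 to Mbd2 is not independent of it. The log2 ratio of Mbd3 to Mbd2 was 2.10, 2.28 and 2.15 in SnoN cKO libraries and 1.92, 2.04 and 2.01 in wild type libraries, a difference of 0.19. The log2 ratio of Gatad2b to Gatad2a, which link the Mbd and Chd parts of NuRD, was -1.10, -1.18 and -1.29 in SnoN cKO libraries and -1.0, -1.03 and -1.05 in wild type libraries, a difference of -0.17. The gap between the nearest libraries was under 0.1 in both. The other 15 pairs overlapped. The ratio of Chd5 to Chd4 per exon length was 0.119 in SnoN cKO and 0.15 in wild type libraries, with a log2 difference of -0.34 (exact permutation p = 0.3). The ratio of Smarca2 to Smarca4, the alternative BAF ATPases, was 0.173 in SnoN cKO and 0.177 in wild type libraries. That of Crebbp to Ep300 was 0.795 in SnoN cKO and 0.809 in wild type libraries.

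**Figure D5:**
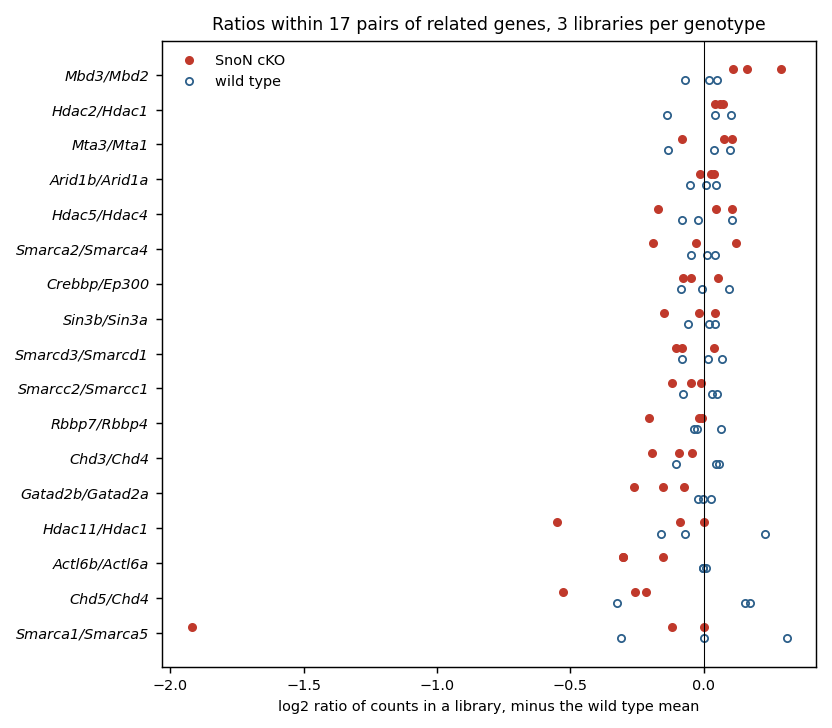
Log2 ratio of the counts of 17 of the 18 pairs of related genes in each library, minus the mean of the wild type libraries, with filled points for SnoN cKO and open points for wild type. The points of the genotypes do not overlap for Mbd3/Mbd2, Gatad2b/Gatad2a and Actl6b/Actl6a, and the lowest point is Smarca1/Smarca5 in SnoN cKO 3.

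The partner proteins of these complexes gave the same picture, with 0 of 57 past the adjusted threshold (edgeR). For comparison, 49.0% of all genes had positive log2 fold changes. At an unadjusted p under 0.05, 3.21% of all genes were higher and 4.47% lower in SnoN cKO. Of 11 further BAF and PBAF subunits, 6 had positive and 5 negative log2 fold changes, and Ss18l1, given above, was the 1 with an unadjusted p under 0.05. Of 9 ISWI partners, 4 were positive (8 without SnoN cKO 3 and 7 without wild type 3), and Pole3, a histone-fold subunit of the CHRAC complex, was the 1 under 0.05. It had 66.8, 73.0 and 72.3 CPM in SnoN cKO libraries and 64.7, 62.8 and 64.4 CPM in wild type libraries, without overlap (log2 fold change 0.15, SE 0.05; unadjusted p = 0.0144, adjusted p = 0.637, edgeR quasi-likelihood test). Its histone-fold partner Chrac1 averaged 15.1 ± 0.868 CPM in SnoN cKO and 13.7 ± 1.35 CPM in wild type libraries (SD, n = 3 each). Pole3 is also a subunit of DNA polymerase epsilon. The summed DNA replication genes, as given above, were higher in every SnoN cKO library, though narrowly in SnoN cKO 3. Their part in the Pole3 value was not tested.

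Of 9 INO80, SRCAP and TIP60 subunits, 7 were positive (6 without SnoN cKO 2 and 9 without SnoN cKO 3). None had an unadjusted p under 0.05. The AAA+ ATPase Ruvbl2 averaged 81.7 ± 7.82 CPM in SnoN cKO and 75.8 ± 2.27 CPM in wild type libraries, and Dmap1 39.0 ± 3.59 CPM in SnoN cKO and 36.2 ± 2.34 CPM in wild type libraries (SD, n = 3 each). Of 16 N-CoR, Sin3 and CoREST partners, 12 were positive (10 with library totals alone, 10 without SnoN cKO 2 and 13 without SnoN cKO 3). Sap30l, a Sin3 subunit, had 29.4, 29.2 and 28.5 CPM in SnoN cKO libraries and 22.2, 25.1 and 28.5 CPM in wild type libraries, with wild type 3 at the SnoN cKO level (log2 fold change 0.20, SE 0.09; unadjusted p = 0.0457, adjusted p = 0.640, edgeR quasi-likelihood test). It ran from 0.12 without wild type 1 to 0.29 without wild type 3. Brms1, another Sin3 subunit, averaged 25.6 ± 1.36 CPM in SnoN cKO and 23.3 ± 1.96 CPM in wild type libraries. Of 12 further acetyltransferases and sirtuins, 5 were positive (3 without SnoN cKO 2, 7 without SnoN cKO 3 and 3 with library totals alone) and 0 had an unadjusted p under 0.05. Kat2b (PCAF) averaged 37.7 ± 1.22 CPM in SnoN cKO and 41.1 ± 3.54 CPM in wild type libraries, and Sirt5, a mitochondrial desuccinylase, 9.13 ± 0.668 CPM in SnoN cKO and 10.3 ± 0.408 CPM in wild type libraries (SD, n = 3 each).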

How the data were processed

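Raw counts of single-end reads, 1 value per gene and library, were deposited by the authors as 1 table for the 6 libraries. The kit that the labels name does not mark strand. The submitters' processing notes name STAR 2.0.4b, Subread, featureCounts 1.4.5 and mm9. The annotation is not given in the sources used here. Of 41228 rows, 140 repeated a symbol with identical counts (112 symbols, Chd1 among them) and were kept once. Of 40254 rows whose identifier is in GENCODE M21, 97 carried that identifier's symbol. Counts of sex-linked, mitochondrial and choroid plexus genes followed the symbols, so symbols were used and no identifier is printed. A further 595 rows had no identifier, and 26 symbols had become dates.

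Genes were filtered with filterByExpr, scaled by TMM and tested with edgeR 4.0.16 (quasi-likelihood, limma 3.58.1, R 4.3.3) on genotype alone, adjusted by Benjamini-Hochberg over 15457 genes. The test was run on simulated counts whose changes were larger than most differences described here, so that check does not bear on small differences. CPM used TMM-scaled totals. Ratios of 18 pairs were tested by exact permutation over 20 arrangements, with adjustment over the pairs. Exon-union lengths, strands, 3′ UTRs and shared 50-base words came from GENCODE M21 (GRCm38), which is not the build of the counts, so lengths are approximate. The labels do not state that each library is 1 animal, so p-values measure the spread between these libraries, which may in part be technical.

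Members, lists and pairs were chosen with earlier results of these data known. Named members are the 2 with the highest mean CPM in each role, the 6 with the smallest unadjusted p in each direction, pair members described as pairs and those that missed the filter. Of each list of partners the 2 with the smallest p are named. Genes whose genotypes do not overlap, Ss18, Phf10, Dpf1, Dpf3, Hdac9 and Smarcal1 are named outside this rule, after their values were seen. Alternatives were other scalings, no filter, DESeq2 1.42.0, labelled sex, a replicate block, repeats kept and leaving out each library. Sex read from sex-linked counts, removal of 10 ribosomal RNA-like genes and removal of wild type 2 with SnoN cKO 3 were added after seeing the data. Values of 1 member are not reported here, though it is counted in the totals.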

Additional observations from a re-analysis of the deposited data

How the results depend on the processing

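No member passed the adjusted threshold under any of 16 alternatives. Over all genes edgeR's quasi-likelihood test called 0 (1187 at an unadjusted p under 0.05), DESeq2 called 6 and the fit with labelled sex called 1. With edgeR 4 members had an unadjusted p under 0.05, where 7.68% of all genes did. This became 1 with DESeq2 (3.59% of all genes) and 2 with the replicate block (5.09% of all genes). Without wild type 2 and SnoN cKO 3 it was 1 (5.59% of all genes). Leaving out each library gave 0 to 7 members. There were 0 without wild type 2 (4.31% of all genes), 2 without wild type 1 (5.49%) and 7 without wild type 3 (8.81%). The causes were not tested. The log2 fold change of Smarca5 ran from -0.03, without SnoN cKO 3, to 1.25. Of 57 members outside the 12 with the smallest p in either direction, 36 took the opposite sign under at least 1 alternative. Same-numbered libraries did not deviate together (correlations -0.04, -0.324 and -0.183). The largest correlation, 0.39, was that of SnoN cKO 3 with wild type 2, the libraries with the most ribosomal RNA-like counts. Features of single libraries enter these values, so they cannot show whether same-numbered libraries were paired. An exact sign-flip test on same-numbered ratios gave p = 0.25 for Actl6b to Actl6a, the smallest that 3 pairs allow. Exact tests of pair ratios cannot pass 0.05 at this size, so they say nothing of stability.

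With 3 libraries per genotype and a median standard error of 0.06, small differences of single genes were not called, and neither was that of Skil. The smallest adjusted p over all genes was 0.637 (edgeR quasi-likelihood test), so the lack of a call does not show equal levels. Arid3c, at 0.928 CPM, had the widest relative spread after Smarca5 among tested members. The reversed sex labels of SnoN cKO 1 and 2 affect fits that use sex: the genotype by sex term called 0 of 15457 genes with labelled sex and 51 with sex read from counts, of which 0 were members. It rests on 1 female library per genotype, which with sex read from counts is SnoN cKO 2 and wild type 1.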

Other observations

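The highest and lowest library of each member fell unevenly over the libraries. SnoN cKO 2 was the highest library for 23 of 69 members (33.3%; 22.4% of all genes), SnoN cKO 1 for 4 (5.8%; 12.7% of all genes) and SnoN cKO 3 for 4 (5.8%; 14.4% of all genes). Wild type 3 was the highest for 24 of 69 (34.8%), where it was the highest for 16.2% of all genes tested. SnoN cKO 3 was the lowest library for 18 members (26.1%; 13.9% of all genes) and wild type 1 for 19 (27.5%; 16.6% of all genes). Smarca4, Chd4, Chd7, Arid1a, Ncor1 and Crebbp, named after their values were seen, were among those highest in wild type 3. The median exon length of the members was 6.99 kb, against 4.36 kb over all genes, and across members the rank correlation of length with log2 fold change was -0.22 (68 genes, which share the same 6 libraries), against -0.11 over 15208 genes. Without SnoN cKO 3 the median log2 fold change of the members was 0.046, against 0.003 over all genes. Without SnoN cKO 2 it was -0.007, against -0.002 over all genes. Leaving out SnoN cKO 1 gave -0.003 for the members, and leaving out wild type 1, 2 and 3 gave -0.007, -0.0 and 0.031.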
